A study of Mus musculus with 2 samples.

Results

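Runx1, Runx2, Twist1, Snai2 and Prrx1 encode 5 transcription factors of mesenchymal cells, and the tags of Brg1 at their loci were described in mouse embryonic fibroblasts. The loci were selected by an interval on the mm9 genome for each gene, widened by 20 kb on each side, in which the ChIP and input tags were read. The genes were chosen on these tags with earlier results known, so their ChIP/input values are given as a description, without a test. Together the 5 loci covered 710 windows of 1 kb out of 2641865 in the genome and held 8044 of 13581267 ChIP tags and 2247 of 5778620 input tags. The series has 2 libraries, both from primary fibroblasts of wild type embryos on a mixed C57BL/6 and 129 background, harvested at E13.5. One library came from DNA precipitated with a rabbit polyclonal antibody against SNF2β/BRG1, the other from input chromatin with no antibody, in each case after release with micrococcal nuclease and a short sonication. Neither library has a replicate, so no value carries a spread between samples, and all intervals cover counting error only. ChIP tags report where the antibody recovered DNA and not how much RNA a gene makes, so the cell type was not checked against marker levels.

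Brg1 is an ATPase of the Swi/Snf complexes, which slide and remove nucleosomes and thereby alter access to DNA at promoters and enhancers. Runx1 and Runx2 are paralogous Runt-domain factors; Runx1 is best known from blood stem cells and Runx2 as the main regulator of bone-forming cells, and each is read from a distal and a proximal promoter separated by a long intron. Twist1, a basic helix-loop-helix factor that binds E-boxes, and Snai2 (Slug), a zinc-finger repressor, are regulators of the transition from epithelial to mesenchymal cells. Prrx1 is a homeodomain factor of limb and craniofacial mesenchyme.

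In each of the 5 widened loci, the ChIP library held more tags than the input and the autosomal totals of 2.36 ChIP tags per input tag would give. The Prrx1 locus, on chromosome 1, had the highest ratio, with 1325 ChIP and 298 input tags over 109 kb, a ratio of 1.89 after scaling (exact 95% interval 1.66 to 2.15). The Twist1 locus on chromosome 12 held 570 against 133 tags over 43 kb, a ratio of 1.82 (1.503 to 2.21). The Runx1 locus, on chromosome 16, followed with 3217 against 917 tags over 266 kb and a ratio of 1.49 (1.38 to 1.60). The intervals of neighbours in this order overlapped, and those of Prrx1 and Runx1 did not. Runx2, on chromosome 17, had 2639 against 808 tags over 247 kb, a ratio of 1.39 (1.28 to 1.502). Snai2, on chromosome 16, had 293 against 91 tags over 45 kb, a ratio of 1.37 (1.08 to 1.75), the least precise of the 5 because it held the fewest tags.

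Autosomal stretches of the same width give a scale for these ratios. Tiles as wide as the Runx1 locus had a median ratio of 0.947, with a range from the 5th to the 95th percentile of 0.703 to 1.33. For the Runx2 width the 95th percentile was 1.33, for Prrx1 1.41, and for both Twist1 and Snai2 1.52. These ranges are given as a scale only, since the genes were chosen on the same tags. Input tags were below the autosomal mean of 2.32 tags per kb only at Snai2, at 0.871 times. They stood at 1.18 times the mean at Prrx1, 1.33 times at Twist1, 1.41 times at Runx2 and 1.48 times at Runx1. The outer part of the Snai2 locus was nearly empty in both libraries, with 2 ChIP and 1 input tags in the 10 kb window at 14680000. This lowers both of its levels per kb. The ChIP, with a mean of 5.47 tags per kb, stood at 1.19 times its mean at Snai2, 1.95 times at Runx2 and between 2.21 and 2.42 times at the other 3 loci.

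In all 5 loci the gene interval had a higher ratio than its flanks, a difference that was not tested. The counting intervals of gene and flanks overlapped at Runx1 only, and the Runx2 flanks are a special case described below. Twist1 and Snai2 are short genes, so most of their widened locus is flank. The 3 kb interval of Twist1 (34642000 to 34645000) held 113 ChIP tags against 9, a ratio of 5.33 (2.71 to 11.95), and its flanks a ratio of 1.56 (1.28 to 1.92). The 5 kb interval of Snai2 (14705000 to 14710000) held 109 against 18, a ratio of 2.57 (1.55 to 4.50), while its flanks were at 1.07 (0.811 to 1.42). In Prrx1 (165175000 to 165244000) the gene was at 2.19 (1.88 to 2.56) and the flanks at 1.29 (1.03 to 1.64). For the Runx1 gene (92601000 to 92827000) the values were 1.51 (1.40 to 1.64) and 1.35 (1.11 to 1.65), whose intervals overlap. The Runx2 interval (44745000 to 44952000) was at 1.45 (1.33 to 1.58) and its flanks at 1.02 (0.816 to 1.28). This interval of 207 kb is shorter than the 319 kb that RefSeq gives for Runx2 on GRCm38. Counted from the 5′ edge, that length reaches past the whole flank beyond the lower edge. This flank would then be gene sequence, so the Runx2 values do not set the gene against sequence outside it. On that assembly Runx2 also overlaps Supt3, which encodes a subunit of the SAGA coactivator, and tags in the overlap cannot be given to either gene alone.

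**Figure D1:**
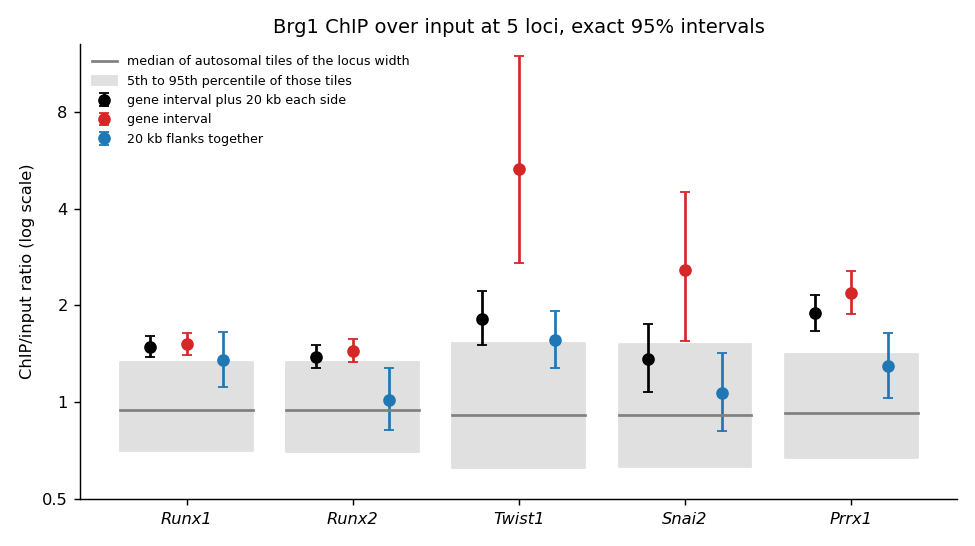
ChIP/input ratio on a log axis for each locus, its gene interval and its flanks; points are ratios scaled by autosomal totals, bars are exact 95% intervals, and grey bands span the 5th to 95th percentile of autosomal tiles as wide as the locus. The gene interval of Twist1 is highest at 5.33, and the flanks of Runx2 (1.02) and Snai2 (1.07) lie near 1.

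The sequence before the transcription start is shown for the genes whose start was examined, as a description that was not tested against the tags around the 5′ edge. RefSeq promoters on GRCm38.p6 were matched by symbol for 4 of the 5 genes; Snai2 is named only. Their coordinates belong to that build and were not used to place tags. Each run gives the 250 bases before the start, 5′ to 3′ along the gene. Capitals mark matches on either strand to TGTGGT (the Runt-domain site, read ACCACA on the other strand), CANNTG (E-box), TGANTCA (AP-1), GGAATG (TEAD) and TATAAA. Of 2 Runx1 starts in the table the outer one is shown.
Runx1, minus strand, chr16:92826075-92826324: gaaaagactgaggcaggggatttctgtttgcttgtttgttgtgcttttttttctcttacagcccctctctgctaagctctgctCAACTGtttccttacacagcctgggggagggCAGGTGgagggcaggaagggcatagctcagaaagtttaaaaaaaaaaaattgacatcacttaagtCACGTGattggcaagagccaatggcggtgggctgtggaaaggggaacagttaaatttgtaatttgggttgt
Runx2, minus strand, chr17:44814628-44814877: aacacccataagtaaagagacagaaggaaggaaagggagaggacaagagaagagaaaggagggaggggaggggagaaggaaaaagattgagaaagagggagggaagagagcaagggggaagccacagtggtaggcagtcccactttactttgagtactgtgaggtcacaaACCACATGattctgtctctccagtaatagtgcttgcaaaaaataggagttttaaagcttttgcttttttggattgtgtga
Twist1, plus strand, chr12:33957421-33957670: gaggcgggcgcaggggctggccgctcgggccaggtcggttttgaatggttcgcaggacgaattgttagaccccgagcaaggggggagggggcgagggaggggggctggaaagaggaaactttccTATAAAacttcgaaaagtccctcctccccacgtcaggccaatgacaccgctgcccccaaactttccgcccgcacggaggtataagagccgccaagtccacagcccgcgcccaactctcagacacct
Prrx1, minus strand, chr1:163313651-163313900: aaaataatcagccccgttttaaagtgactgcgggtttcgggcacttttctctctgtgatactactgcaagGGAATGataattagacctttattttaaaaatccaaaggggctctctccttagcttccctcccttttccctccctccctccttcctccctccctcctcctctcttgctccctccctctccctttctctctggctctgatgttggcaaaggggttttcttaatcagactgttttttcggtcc

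These promoters differed in CpG content. Twist1 held 18 CpG in the 250 bases and 62.4% G and C, against a median of 6 CpG and 52.4% over 32851 promoters in the table. Prrx1 held 4 CpG, the outer Runx1 promoter 2 and Runx2 0. The inner Runx1 promoter held 27 CpG and 67.6% G and C. The outer Runx1 sequence had 3 E-boxes, a motif found in 66.2% of all promoters. Runx2 had 1 Runt match overlapping 1 E-box, Twist1 had a TATAAA at 126 to 121 bases before the start, and Prrx1 had 1 GGAATG. Of all promoters, 14.05% held the Runt letters, 12.4% TATAAA, 12.6% GGAATG and 6.75% TGANTCA, of which none of the 4 sequences had a copy. A match is a description of the letters, not a bound site.

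Around the 5′ edge of the gene interval, the order of the genes depended on the distance, and within 2 kb the counting intervals of all 5 overlapped. The edges are rounded to 1 kb, so a start can lie about 1 kb away. Within 2 kb on either side of the edge, Runx1 held 115 ChIP tags and 9 input tags, for which the ratio was 5.42 (2.76 to 12.2). Prrx1 held 115 against 13, a ratio of 3.75 (2.11 to 7.26), and Twist1 149 against 18, a ratio of 3.51 (2.15 to 6.09). Runx2 held 48 against 13, a ratio of 1.57 (0.836 to 3.15), an interval that includes 1 and overlaps those of the other 3 genes. Within 5 kb the ratio was 3.14 (2.18 to 4.66) at Prrx1, 2.66 (1.87 to 3.90) at Runx1, 2.36 (1.68 to 3.39) at Twist1, 2.31 (1.55 to 3.53) at the lower edge of Snai2 and 1.72 (1.04 to 2.96) at Runx2, whose interval then excludes 1. For Snai2 no strand was taken from the table, so both edges were read: the lower edge held 89 against 14, a ratio of 2.70 (1.53 to 5.13), and the upper edge 39 against 9, a ratio of 1.84 (0.876 to 4.32).

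By distance from the edge, the genes had different profiles, whose differences were not tested. At Runx1 they were dense over a few kb: the ratio was 6.26 (2.32 to 23.7) in the 2 kb before the edge and 4.75 (1.92 to 15.2) in the 2 kb after it. It was 1.90 (1.07 to 3.57) at 2 to 5 kb inside the gene, 0.870 (0.498 to 1.57) at 5 to 10 kb inside the gene and 0.877 (0.459 to 1.75) at 5 to 10 kb before it. At Prrx1 they declined slowly into the gene, from 3.68 (1.58 to 10.5) in the first 2 kb to 3.59 (1.92 to 7.43) at 2 to 5 kb, 2.65 (1.56 to 4.82) at 5 to 10 kb and 1.77 (1.17 to 2.76) at 10 to 20 kb. At Twist1 they lay mostly on the gene side and beyond. The Twist1 ratio was 0.495 (0.213 to 1.17) at 5 to 2 kb before the edge, 2.499 (1.22 to 5.76) in the 2 kb before it, 4.53 (2.29 to 10.2) in the first 2 kb after it, 2.43 (1.54 to 4.02) at 5 to 10 kb and 1.79 (1.20 to 2.75) at 10 to 20 kb. As the Twist1 interval is 3 kb long, the last 2 of these bins lie past the gene, towards Hdac9 in the order of RefSeq genes. At Snai2 the ratio was 2.36 (1.15 to 5.45) at 2 to 5 kb past the lower edge and 1.10 (0.595 to 2.15) at 5 to 10 kb, just past the interval.

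**Figure D2:**
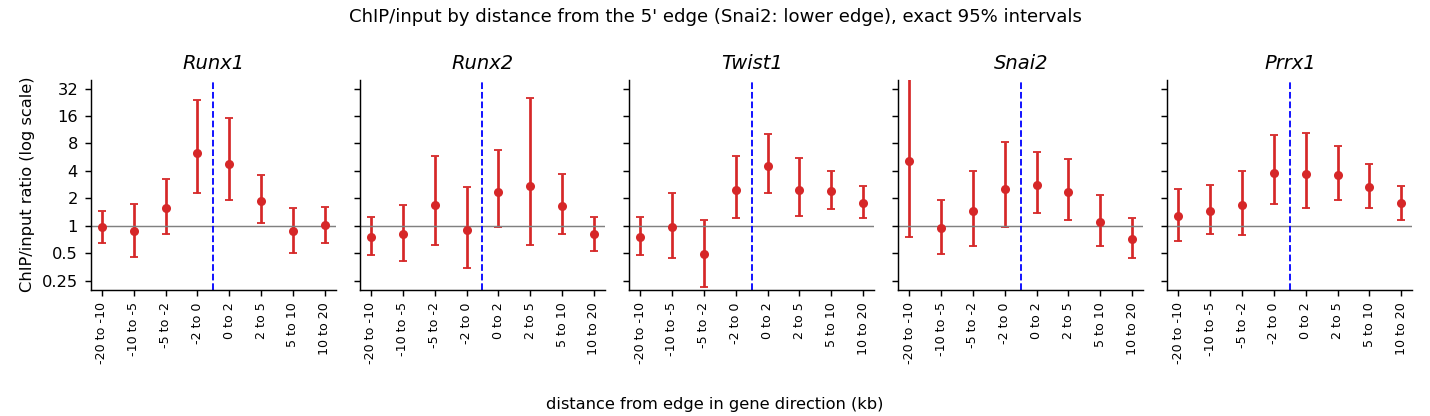
ChIP/input ratio on a log axis by distance from the 5′ edge of each gene interval in kb, negative before the gene, with exact 95% intervals; the dashed line is the edge (for Snai2 the lower edge), and the widest interval of Snai2, from 12 against 1 tags, runs past the axis. Runx1 is highest within 2 kb of the edge, Prrx1 and Twist1 stay above 1 as far as 20 kb into or past the gene, and Runx2 crosses 1 on both sides.

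Windows of 1 kb resolve single blocks but hold few input tags. A window was called when its ChIP and input tags, compared by an exact binomial test with adjustment over the genome, passed 0.05 at a ratio of at least 1.5 or at most its inverse. Of the 710 windows of the loci, 510 had the 10 tags needed for the test, 5 were called higher and 0 lower. Over the genome 0.380% of the tested windows were called higher and 0.00666% lower. The tags chose the genes, so nothing is read from these shares. All 5 windows lost the call when an input count under the surrounding 10 kb average was replaced by that average, and all 5 when tags within 5 bp on a strand were counted once. The share called over the genome fell in the same settings, to 0.00496% and 0.0585%. Within 5 bp the 5 ratios were still between 5.25 and 14.9, and with the input average the ratio of the Runx1 window at 92621000 was still 6.15, while those of the other 4 lay between 3.82 and 7.21.

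The 5 called windows lay in Runx1, Runx2 and Twist1. In Runx1, the window at 92609000 held 37 ChIP tags and 1 input tag, a ratio of 15.7 (2.65 to 637), and the window at 92621000 held 58 against 4, a ratio of 6.15 (2.28 to 23.3). They lie 217.5 and 205.5 kb from the 5′ edge, near the far end of the gene interval. The second of them drew 25 of its ChIP tags from the plus strand and 33 from the minus strand. In Runx2, the windows at 44873000 (34 against 1, ratio 14.4, 2.42 to 586) and 44875000 (37 against 1, ratio 15.7, 2.65 to 637) lie in the interior. In Twist1, the window at 34641000, just before the edge, held 36 against 1, a ratio of 15.3 (2.57 to 620). The window after the edge, at 34642000, had more ChIP tags, 57, but also 6 input tags, for a ratio of 4.03 (1.74 to 11.4), and was not called.

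Other 1 kb windows with a high lower bound were not called. The Runx1 window at 92698000, 128.5 kb inside the gene, held 30 against 1 (ratio 12.7, 2.12 to 519). The Runx2 window at 44845000 held 20 against 0, for which the exact interval gives only a lower bound, 2.10. In Twist1 the windows at 34643000 (39 against 3, ratio 5.52, 1.75 to 27.9) and 34644000 (17 against 0, lower bound 1.75) cover the rest of the gene. Just before the 5′ edge of the Runx genes, the window of Runx1, at 92827000, held 24 against 2 (ratio 5.09, 1.26 to 44.5), and the window of Runx2, at 44952000, held 12 against 4 (ratio 1.27, 0.386 to 5.42). On the gene side, the window at 92826000 in Runx1 held 27 against 1 (ratio 11.5, 1.89 to 469). That at 44951000 in Runx2 held 19 against 4 (ratio 2.02, 0.670 to 8.15).

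Snai2 and Prrx1 had no called 1 kb window. The highest lower bound in Snai2 belonged to the window at 14706000, with 35 against 5 tags, a ratio of 2.97 (1.16 to 9.71). The Snai2 windows at 14702000 and 14709000 each held 11 against 0, with a lower bound of 1.07, and that of the lower edge 24 against 4 (ratio 2.55, 0.875 to 10.1). In Prrx1 the highest lower bound belonged to the window at 165222000, 21.5 kb inside the gene, with 27 against 1 (ratio 11.5, 1.89 to 469). The latter drew 6 ChIP tags from the plus strand and 21 from the minus. The window at 165235000 in Prrx1 held 18 against 0, with a lower bound of 1.87. The Prrx1 window at 165242000 had more ChIP tags, 40 against 3, a ratio of 5.66 (1.80 to 28.6). The window of the Prrx1 edge, at 165244000, lies just before the gene and held 33 against 2, a ratio of 7.00 (1.79 to 60.2). On the gene side of that edge the window at 165243000 held 12 against 3, a ratio of 1.70 (0.458 to 9.37). Among the tested windows, the one with the lowest upper bound had a ratio of 0.283 in Runx1 (at 92704000, 6 against 9 tags), in Runx2 (at 44775000, 6 against 9) and in Twist1 (at 34625000, 4 against 6). Among those of Snai2 it was 0.354 (at 14719000) and of Prrx1 0.424 (at 165187000). Windows with under 10 tags, which were not tested, had lower upper bounds in every locus but Runx1. The Runx1 window lies 4 kb from the 10 kb with the highest ratio of that locus.

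**Figure D3:**
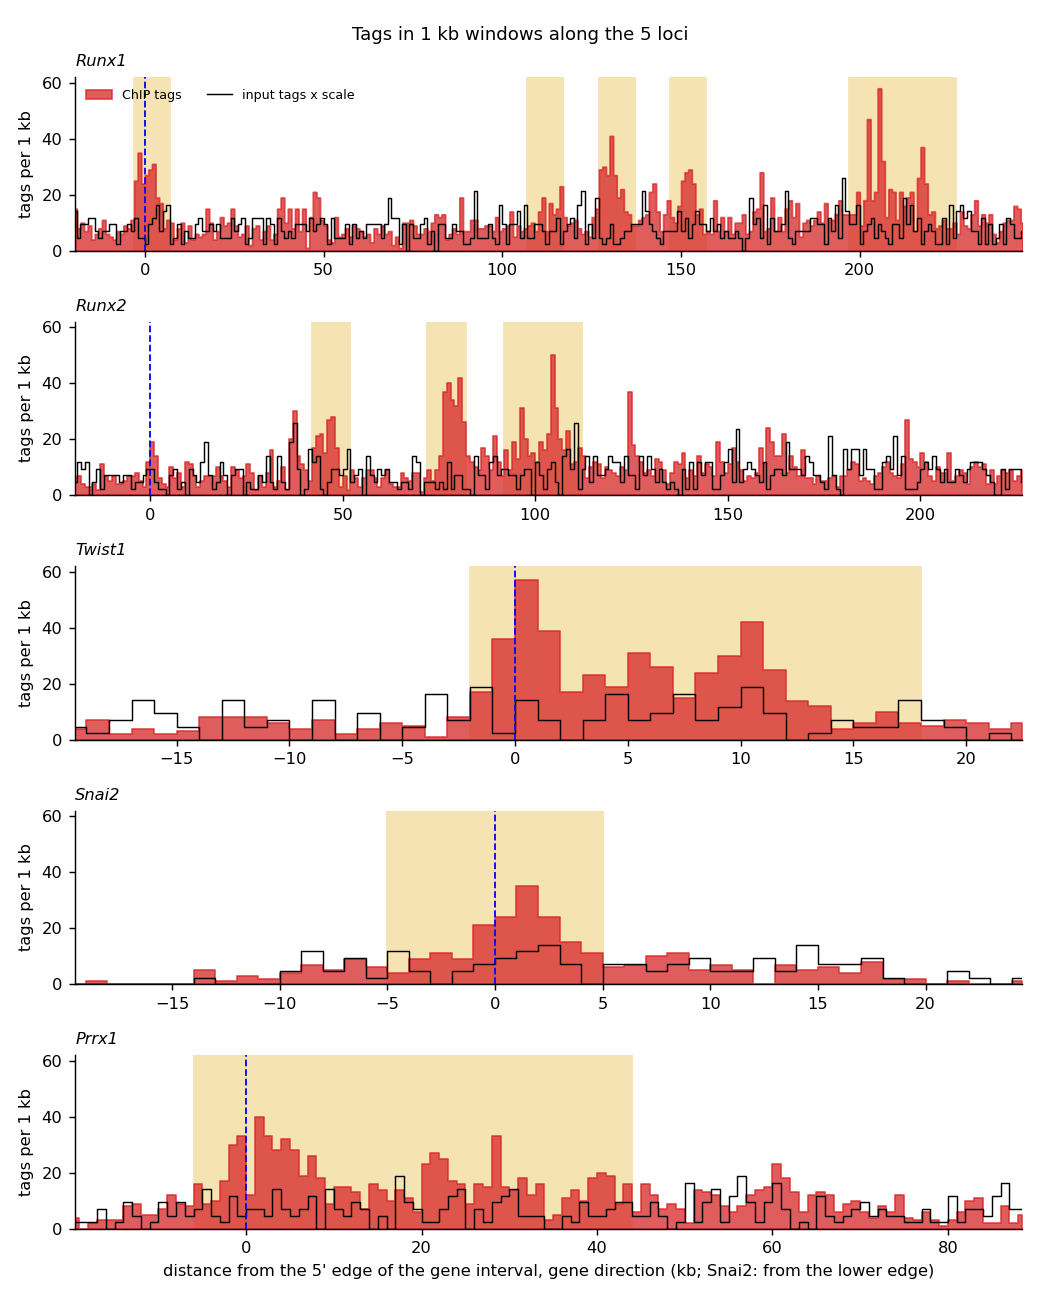
Tags per 1 kb along each locus, by distance in kb from the 5′ edge in the direction of the gene (dashed line; Snai2 from the lower edge), with ChIP tags filled in red, input tags times the scale of 2.36 as a black line and called 10 kb windows shaded. Runx1 and Runx2 show separate blocks far inside the gene, and Prrx1 a run of 50 kb from its edge.

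Windows of 10 kb hold about 10 times the tags and rest less on single input tags. In the 5 loci 71 of 72 such windows had enough tags, 19 were called higher and 0 lower. Over the genome the shares were 3.98% higher and 1.11% lower, and the same caution holds, since the members were chosen on these tags. The median ratio was 1.37 in the loci and 0.898 over all tested windows. The called windows were 7 of 27 in Runx1, 4 of 25 in Runx2, 2 of 4 in Twist1, 1 of 4 tested in Snai2 and 5 of 11 in Prrx1. Their ratios ran from 1.87 to 5.01. They held 44.5% of the ChIP tags in the windows of the loci and 27.2% of the input tags, close to their 26.4% share of the windows. A larger share of ChIP than of input tags comes with the call and is not a separate result, here and for the single loci below. Input tags were below the autosomal mean in 3 of the 19, the lowest at 0.904 times. The count was also 19 when tags within 5 bp were counted once.

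Both Runx genes had their highest 10 kb ratio in the interior, not at the 5′ edge. In Runx2 the window at 44870000 to 44879999, 72 to 82 kb inside the gene, held 248 ChIP tags and 21 input tags, which gives a ratio of 5.01 (3.21 to 8.24). Its 1 kb windows, from low to high coordinate, held 26, 42, 32, 34, 40, 37, 14, 9, 5 and 9 ChIP tags and between 1 and 5 input tags, so the dense part was about 6 kb wide. In Runx1 the window at 92690000 to 92699999, 127 to 137 kb inside the gene, had 231 ChIP and 23 input tags, and its ratio was 4.26 (2.77 to 6.86). There the 1 kb windows held 9, 13, 14, 22, 19, 27, 41, 27, 30 and 29 ChIP tags against 1 to 4 input tags, rising towards the 5′ side. In both windows the input was near the autosomal mean, at 0.904 times in Runx2 and 0.991 times in Runx1. It was low for these loci, which raises both ratios. The 23 input tags were the lowest among the 27 Runx1 windows, whose median was 35. The 21 in Runx2 stood beside a median of 32 and a lowest count of 19. By ChIP tags alone the Runx1 window at the 5′ edge, at 92820000, was close to the interior one, with 226 against 42 input tags. The ratio intervals of these windows overlapped. The most ChIP tags of a Runx1 window, 250, lay at 92620000. The place of the proximal promoters on mm9 was not used here, so neither block is assigned to one. On GRCm38.p6 the inner Runx1 sequence ends at 92697579 and the outer one at 92826324. That spacing falls within the 127 to 137 kb between the Runx1 block and the 5′ edge. Whether the block holds the inner promoter was not tested.

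Runx1 carried further blocks. At the 5′ edge the window at 92820000 held 226 against 42, a ratio of 2.28 (1.64 to 3.25). Next came 100 kb without a call, with 841 against 321 tags and a ratio of 1.11 (0.976 to 1.27), whose 10 windows ranged from 0.799 to 1.42. Past it lay single windows at 92710000 (ratio 2.03, 1.34 to 3.17) and 92670000 (ratio 1.89, 1.33 to 2.73), beside the block already described. At the far end of the gene, 3 adjacent windows from 92600000 to 92629999 held 568 against 105, a ratio of 2.30 (1.86 to 2.85), and included both called 1 kb windows. Runx1 thus had called windows at both ends of its interval and in the middle, and its 7 called windows took 41.1% of the ChIP tags in its windows and 25.7% of the input tags.

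In Runx2 the called windows lay in the interior. Besides the densest window, 2 adjacent windows from 44840000 to 44859999, 92 to 112 kb inside the gene, held 386 against 71, a ratio of 2.31 (1.79 to 3.02), and the window at 44900000 held 159 against 36, a ratio of 1.87 (1.30 to 2.77). The 60 kb that include the 5′ edge had no call, at 454 against 171 and a ratio of 1.13 (0.943 to 1.35). The 120 kb at the other end of the locus were at 1.17 (1.04 to 1.30) with no call among 12 windows. All 4 called windows of Runx2 therefore lay between 42 and 112 kb from the edge.

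The called windows of Prrx1 formed 1 run. All 5 were adjacent, from 165200000 to 165249999, and held 862 against 144 tags, a ratio of 2.54 (2.13 to 3.05). Their single ratios lay between 2.25 and 2.93, highest in the window of the 5′ edge, with 228 against 33 tags. The remaining 50 kb on the far side, 44 to 94 kb from the edge, had a ratio of 1.25 (1.03 to 1.52), and its window farthest from the edge 0.575 (0.353 to 0.946).

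In Twist1 the 2 called windows, from 34640000 to 34659999, held 453 against 76, a ratio of 2.53 (1.98 to 3.27). They made up 50% of the windows of the locus and held 81.8% of the ChIP tags and 56.7% of the input tags in those windows. Before them, 20 kb held 101 against 58, a ratio of 0.739 (0.530 to 1.04), an interval that includes 1. In Snai2 the called window, 14700000 to 14709999, had 163 ChIP and 30 input tags (ratio 2.31, 1.55 to 3.53), and the 20 kb past it a ratio of 0.803 (0.555 to 1.17). The window at 14680000 in Snai2 held 2 ChIP and 1 input tags and was not tested.

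**Figure D4:**
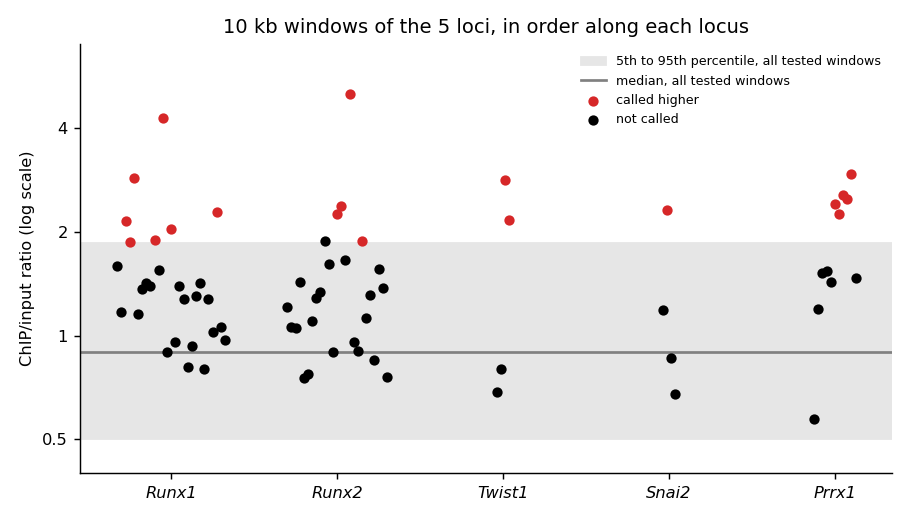
ChIP/input ratio on a log axis for each tested 10 kb window, in order of coordinate within each locus, with the median (0.898) and the 5th to 95th percentile (0.503 to 1.86) of all 249877 tested windows in grey. The called windows, in red, reach 4.26 in Runx1 and 5.01 in Runx2, and those of Prrx1 lie close together.

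At the short genes, bins of 250 bp placed the densest tags inside the gene interval. In Twist1 the bin at 34642500 to 34642749 held 19 ChIP tags, 10 of the plus strand and 9 of the minus, against 2 input tags, and the next bin held 16 against 1. A second rise, picked out after its values were seen, lay 10.5 kb past the edge, where the 1 kb window at 34652000 held 42 against 8 tags, a ratio of 2.23 (1.03 to 5.49). In that window the input was also high, at 3.45 times its mean. In Snai2 the bin at 14706000 to 14706249 held 17 ChIP tags, 9 plus and 8 minus, against 0 input tags, and the next highest bin beside it 10 against 2. Both strands thus contributed to the densest bin of each gene.

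**Figure D5:**
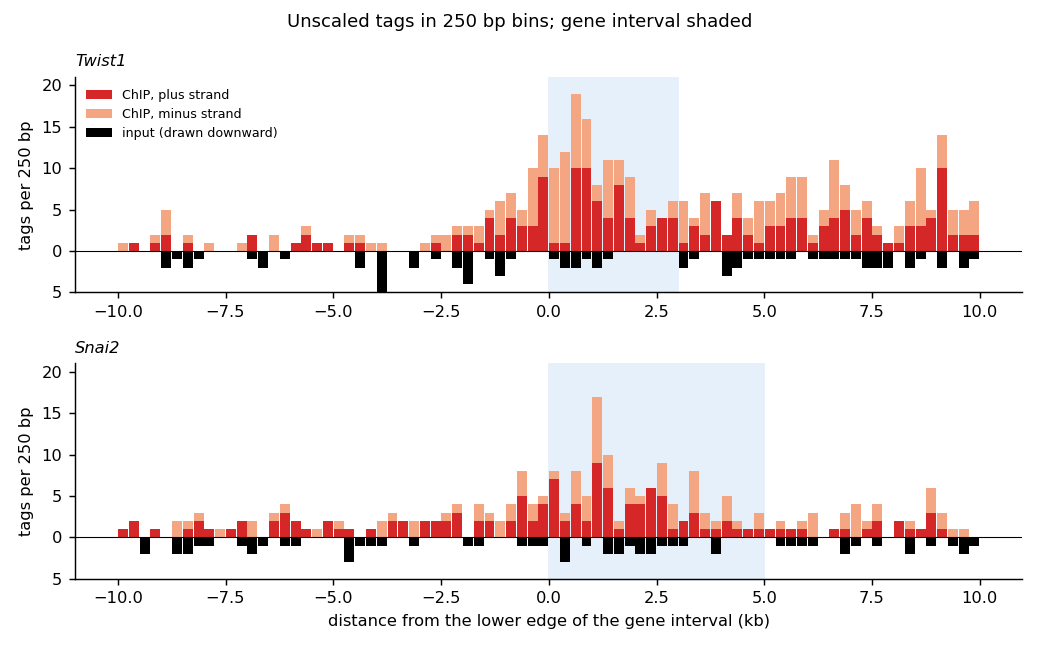
Unscaled tags per 250 bp within 10 kb of the lower edge of the Twist1 and Snai2 intervals (shaded), with ChIP tags stacked by strand above 0 and input tags drawn downward. The highest bins, 19 tags in Twist1 and 17 in Snai2, lie inside the interval.

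The share of repeated ChIP tags was above the autosomal share at Twist1 and Runx1, while the counting intervals of the 5 loci all overlapped each other. The share of listed ChIP positions with 2 tags was 0.825% on the autosomes, 2.16% at Twist1 (12 of 555, Clopper-Pearson interval 1.12 to 3.75) and 1.39% at Runx1 (1.01 to 1.86). It was 0.956% at Runx2, 0.687% at Snai2 and 0.684% at Prrx1, with intervals that include the autosomal share. In the input library the share was 0.0207% on the autosomes and 0 at each of the 5 loci, so repeated tags were mostly a trait of the ChIP library. The autosomal ChIP tags, 13215004 at 13106841 positions of which 108163 had 2, leave no position with more than 2. The same holds for the input. Whether repeats had been capped at 2 before deposit was not tested, and counting 1 tag per position starts from these counts. With 1 tag per position, all 5 locus ratios stayed inside their intervals, and that of Twist1 was 1.79. Plus-strand tags made up 46.9% (Twist1) to 55.6% (Snai2) of the ChIP tags, with intervals that include 50 in every locus. Same-strand pairs of ChIP tags at 160 to 190 bp, near nucleosome spacing, were 1.03 times as many as those at 250 to 280 bp on the autosomes. In the input this was 1.03 as well. At the 5 loci it was 0.995 in the ChIP, from 2027 and 2038 pairs, and 0.984 in the input, and since pairs share tags no interval is given.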

How the data were processed

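The values are tag counts. In the deposited files every line gives the tag count at 1 position of 1 strand; Bowtie and mm9 are named, per the submitters' processing notes. Versions, settings and any filter on repeated tags are not given in the sources used here, nor whether positions count from 0 or 1, so a coordinate may be off by 1 bp. No autosomal position held more than 2 tags in either library. Each tag was moved 75 bp along its strand and counted in the loci, in bins of 250 bp and in windows of 1 kb and 10 kb; a window belonged to a locus when its centre lay in it. Ratios were scaled by autosomal totals and have exact conditional (Clopper-Pearson) 95% intervals, which cover counting error only. Windows with at least 10 tags were tested by a two-sided exact binomial test (the smaller tail doubled) with Benjamini-Hochberg adjustment over all tested windows. These tests compare 2 libraries, not conditions. Tiles with under 0.5 times the mean input were left out. In each locus the tested windows named were the 3 with the highest lower bound, the 1 with the lowest upper bound, that of the 5′ edge, all called ones and the best of 10 kb. The window of the edge started at the edge, so it lay before a gene on the minus strand and inside Twist1. For the genes on the minus strand the window on the gene side is given too. Strands came from the RefSeq promoter table of GRCm38.p6; coordinates were not converted, and other genes of the programme are not analysed here because that needs an annotation on mm9. The members and lists were chosen with earlier results of these data known. On simulated tags the 10 kb test, run on 249619 windows, called 52.5% of windows raised 2-fold and 100% raised 4-fold. The 1 kb test, on 753850 windows, called 0% of those raised 2-fold, 8.00% raised 4-fold and 77.0% raised 8-fold. Only windows with an expected input above the autosomal mean were raised, and the simulated counts had counting error alone. The shares called may thus be lower in sparser windows or real tags. Alternatives were other scalings, repeated tags counted once, unmoved tags, other widths, minimums and window grids. Python 3.11.15, numpy 2.4.6, scipy 1.17.1, pandas 2.3.3 and matplotlib 3.10.9 were used.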

Additional observations from a re-analysis of the deposited data

How the results depend on the processing

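Of 107 values of the ratios and counts under alternatives, 86 stayed within the 95% interval or, for counts, within 1.5 times. Among the ratios 0 changed direction, which was not assessed for counts. Some alternatives could move a ratio only slightly, such as scaling by all chromosomes, at 0.997 times the main scale. The 86 are therefore not independent checks. Scaling by the 10 kb windows at or below the median tag sum lowered the scale to 0.776 of its value and so raised every ratio alike: the loci rose to 1.92 (Runx1), 1.79 (Runx2), 2.34 (Twist1), 1.76 (Snai2) and 2.43 (Prrx1), the gene intervals to 1.95 (Runx1), 1.87 (Runx2) and 2.82 (Prrx1). Without widening, the locus ratio was 5.33 in Twist1, 2.57 in Snai2 and 2.19 in Prrx1, and with 50 kb on each side it was 1.35 in Twist1 and 1.10 (0.922 to 1.32) in Snai2, an interval that includes 1. The 5 called 1 kb windows (0.380% over the genome) became 0 with tags within 5 bp counted once (0.0585%), 0 with windows of 0.5 kb (0.00376%) and 0 where low input was raised to its 10 kb mean (0.00496%). They became 1 with no minimum (0.0295%), 10 with the grid moved by 0.5 of a window (0.382%), 20 with windows of 2 kb (0.802%), 40 with the background scaling (2.07%) and 41 with a minimum of 20 tags (19.4%). The 19 called 10 kb windows became 32 with the background scaling, at 10.8% of all windows, and stayed between 16 and 20 otherwise. Of 85 values for the windows called at 1 kb and the best at 10 kb, 14 lost the call, all at 1 kb. No paired analysis was possible because neither library has a replicate. The input averaged 2.32 tags per 1 kb window, so single input tags move the 1 kb ratios.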
